A study of Mus musculus with 6 samples.

Results

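The 9 genes described here encode CC chemokines of monocytes and macrophages with 2 of their receptors: the ligands Ccl2, Ccl7, Ccl8, Ccl24, Ccl3, Ccl4 and Ccl6, and the receptors Ccr1 and Ccr2. They were chosen by symbol, 9 of the 31053 gene features of the count matrices, and each symbol was found. Expression was measured by droplet single-cell RNA-seq (10x Genomics 3′ v3 chemistry) of whole colon tumours of male mice, taken apart mechanically and enzymatically and sorted with DAPI to remove dead cells. The series sets tumours with mutant Apc against tumours with mutant P53 and Notch1 activation, with 3 libraries of each.

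The 3 Apc ICI libraries came from VilCreER Apcfl/fl mice, in which 70 µl of 100 µM 4-OH tamoxifen was injected into the colonic submucosa and no treatment was given. The 3 AOM PN libraries came from VilcreER P53fl/fl Notch1Tg mice, given 2 mg of tamoxifen intraperitoneally then, starting on day 4, the carcinogen azoxymethane (AOM) in weekly doses of 10 mg/kg over 6 weeks. The labels also call the AOM PN samples ageing tumours and the Apc ICI samples intracolonic induction, and give no ages. In both, the villin promoter drives the tamoxifen-inducible Cre recombinase, which places recombination in gut epithelium. The genotype, the carcinogen and the route of induction, and age if the label means that, differ together between the groups and cannot be told apart. The labels do not say whether the libraries of a group came from separate animals, and p-values therefore measure only how far these libraries differ.

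CC chemokines are small secreted proteins that bind G protein-coupled receptors on leukocytes and set up gradients along which the cells migrate. Ccl2 and Ccl7 are ligands of Ccr2, which brings classical monocytes out of the marrow and into inflamed gut. Ccl3 and Ccl6 act through Ccr1, mouse Ccl8 through Ccr8, and Ccl24 (eotaxin-2) through the eosinophil receptor Ccr3.

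RefSeq promoter sequences (GRCm38.p6) were matched for 5 of the 9 genes, Ccl8, Ccl3, Ccl6, Ccr1 and Ccr2. The 250 bases before the start are shown for Ccl8, whose UMIs were held mostly by macrophage-like cells, and for Ccl3 and Ccl6, whose UMIs were held mostly by neutrophil-like cells. Capitals mark the letters TATAAA. Both strands of the promoters, 250 bases before to 50 after the start, were searched for TATAAA (the TATA box), for TGANTCA (AP-1) and for a core of the NF-kB site, which 13.6%, 7.81% and 5.56% of 32851 promoters of that length hold. The search found 1 match in the 5 promoters, the TATAAA of Ccl8. No match says only that these letters are not in this window.
Ccl8, chr11:82114935-82115184, plus strand: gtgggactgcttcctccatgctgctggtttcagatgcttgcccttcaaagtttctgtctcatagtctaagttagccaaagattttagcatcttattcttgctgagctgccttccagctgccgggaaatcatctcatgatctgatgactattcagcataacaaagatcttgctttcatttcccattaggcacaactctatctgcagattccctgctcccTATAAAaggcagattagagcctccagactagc
Ccl3, chr11:83649379-83649628, minus strand: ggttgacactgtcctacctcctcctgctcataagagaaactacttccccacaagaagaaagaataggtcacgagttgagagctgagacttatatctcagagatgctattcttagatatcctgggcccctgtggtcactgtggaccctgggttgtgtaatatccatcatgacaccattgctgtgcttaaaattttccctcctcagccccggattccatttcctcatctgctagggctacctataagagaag
Ccl6, chr11:83593088-83593337, minus strand: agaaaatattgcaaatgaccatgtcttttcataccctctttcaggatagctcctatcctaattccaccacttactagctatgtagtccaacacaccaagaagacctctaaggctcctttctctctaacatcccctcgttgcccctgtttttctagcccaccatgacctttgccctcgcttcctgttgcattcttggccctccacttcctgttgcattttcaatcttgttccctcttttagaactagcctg

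All 9 are protein-coding genes. On GRCm38 (GENCODE M21), 6 lie on chromosome 11. Ccl2 is at chr11:82035571-82037453, Ccl7 at chr11:82045712-82047525, Ccl8 at chr11:82115185-82116799 and Ccl4 at chr11:83662584-83664683, all on the plus strand. Ccl6 is at chr11:83587882-83593087 and Ccl3 at chr11:83647844-83649355, both on the minus strand. Ccl24 is at chr5:135569937-135573049 on the minus strand, Ccr1 at chr9:123962124-123968692 on the minus strand and Ccr2 at chr9:124101950-124113557 on the plus strand. The annotation places Gm17268 opposite Ccl2 and E230016K23Rik opposite Ccl6, and how the counting treated such overlaps is not given in the sources used here.

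After filtering, 46062 cells were kept in 34 clusters, 16435 of Apc ICI and 29627 of AOM PN. The clusters were made without the 9 genes and named "X-like" from marker lists. Total UMIs (unique molecular identifiers, each counting 1 captured transcript) ran from 59309093 to 60075436 in the Apc ICI libraries and from 87107277 to 98583066 in AOM PN. Monocyte/macrophage-like cells were 9.93% to 17.2% of the cells of the Apc ICI libraries and 21.6% to 24.4% of AOM PN. Mast-like cells were 0.296% to 0.367% in Apc ICI, 53 cells in all, and 11.2%, 2.61% and 20.9% in AOM PN 1 to 3, 3735 cells in all. No cluster was named fibroblast, endothelial, pericyte or glia, so those sources are not described. A level below is the number of UMIs of a gene per 1000000 UMIs (CPM) in the sum of the cells of a library, haemoglobin left out, which does not scale with gene length. Differences are AOM PN over Apc ICI on the log2 scale with their standard error, and a gene is called where the adjusted p is under 0.05. Differences use TMM factors, which centre most genes near 0, and the levels in CPM do not. Against library totals, a scaling added after seeing the data, TMM moved the median over all genes up by 0.34 in all kept cells, 0.48 in neutrophil-like and 0.56 in mast-like cells, and by 0.09 to 0.19 in the other classes. A level and a difference can therefore differ in sign, which happened to no member called under either scaling. Free RNA can add transcripts to cells that do not make them. In erythroid-like cells, 4 mast cell genes (Cpa3, Tpsb2, Mcpt1 and Mcpt2) summed to 116 to 431 CPM in Apc ICI against 1793 to 18128 in AOM PN. Whether free RNA, doublets or other cells gave these values was not tested. Erythroid-like levels rest on small sums once haemoglobin is left out, 50694 to 644010 UMIs per AOM PN library. Whether they measure the free RNA of other classes was not tested.

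Over all kept cells, the Ccr2 ligands Ccl2 and Ccl7 were higher in AOM PN tumours in every library. Ccl2 was at 40.9, 60.7 and 47.9 CPM in Apc ICI 1 to 3 and at 344, 153 and 466 in AOM PN 1 to 3 (log2 difference 3.03 ± 0.41, edgeR adjusted p = 0.00334). Ccl7 was at 10.6, 12.9 and 10.8 against 63.9, 28.6 and 125 (log2 difference 3.01 ± 0.51, edgeR adjusted p = 0.00660). Neither gene's groups overlapped. Such separation was common, at 50.8% of 18869 genes in all kept cells and 30.7% of 13849 in monocyte/macrophage-like cells. It was 47.9% of 13018 genes in neutrophil-like cells and 51.9% of 15865 in epithelial-like cells, and was not computed for the other classes. Ccl24 was at 116, 49.1 and 124 against 110.4, 293 and 1285, with overlapping groups and AOM PN 3 far above the rest (log2 difference 2.89 ± 0.91, edgeR adjusted p = 0.0487). With library totals the call was lost (2.55 ± 0.87, edgeR adjusted p = 0.0533). Without AOM PN 3 the Ccl24 difference was 1.41 (edgeR adjusted p = 0.0973), and the call was also lost on leaving out AOM PN 2 or any Apc ICI library. These were 3 of 9 genes called higher and 0 lower, where 13.8% of 15590 genes tested were called higher, 18.8% lower and 32.6% in either direction. Ccl3 was at 515, 879 and 677 against 404, 241 and 154, apart between the groups but not called (log2 difference -1.04 ± 0.36, edgeR adjusted p = 0.0655), and called lower with library totals (-1.37 ± 0.37, edgeR adjusted p = 0.0238). Ccr2 was at 177, 49.9 and 64.4 against 160.4, 207 and 221 and overlapped (log2 difference 1.37 ± 0.46, edgeR adjusted p = 0.0612). The other genes, Ccl4, Ccl6, Ccl8 and Ccr1, had edgeR adjusted p from 0.386 for Ccr1 to 0.882 for Ccl4, with differences above 0 that lay below 0 with library totals. In such sums, more cells of a type and more RNA per cell cannot be told apart.

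**Figure D1:**
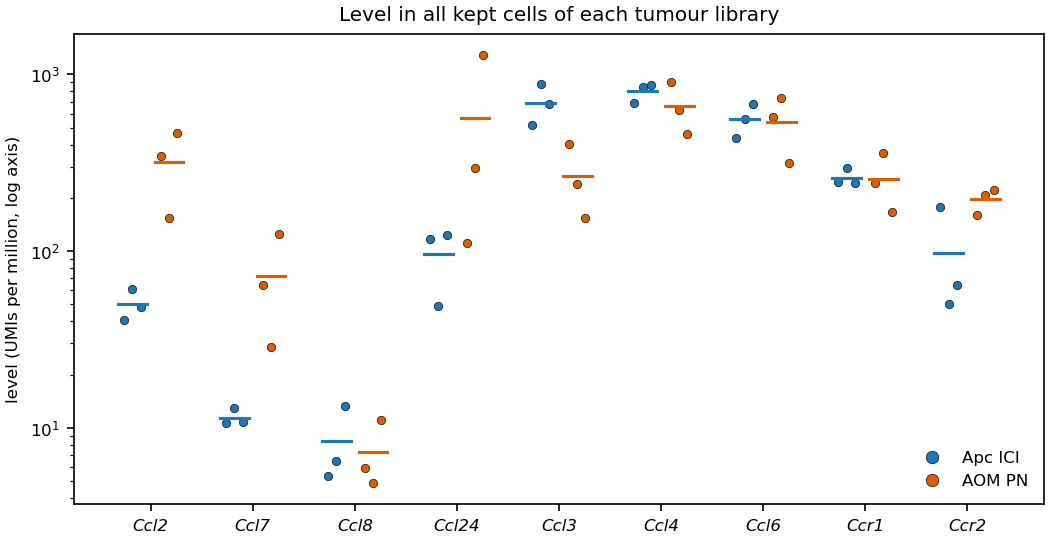
Level of each of the 9 genes in all kept cells, in CPM on a log axis, with 1 point per library and a bar for the mean of 3 libraries. Ccl2 and Ccl7 lie higher in every AOM PN library than in any Apc ICI library.

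The classes that held the Ccl2 and Ccl7 UMIs differed between libraries. Ccl2 had 4322 UMIs in Apc ICI against 58943 in AOM PN. Mast-like cells held 5.44%, 0.210% and 40.8% of them in Apc ICI 1 to 3 and 70.1%, 20.9% and 86.7% in AOM PN 1 to 3. Monocyte-like cells held 35.9%, 27.2% and 34.5% against 22.3%, 65.3% and 6.17%. Monocyte-like cells thus held the larger share in AOM PN 2, the AOM PN library with the fewest mast-like cells. Macrophage-like cells held 35.8% ± 23.4 against 4.28% ± 1.36 (mean ± SD, n = 3). Of the Ccl7 UMIs, mast-like cells held 2.07%, 1.38% and 74.5% in Apc ICI against 74.2%, 24.5% and 83.4% in AOM PN. With mast-like cells left out, an alternative chosen after seeing the data, the difference over all other cells was 1.72 ± 0.27 for Ccl2 (edgeR adjusted p = 0.00367) and 1.79 ± 0.46 for Ccl7 (edgeR adjusted p = 0.0221). Under it Ccr2 passed the threshold as well, at 1.62 ± 0.48 (edgeR adjusted p = 0.0339). Calls over all genes rose too, from 5082 to 6037.

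**Figure D2:**
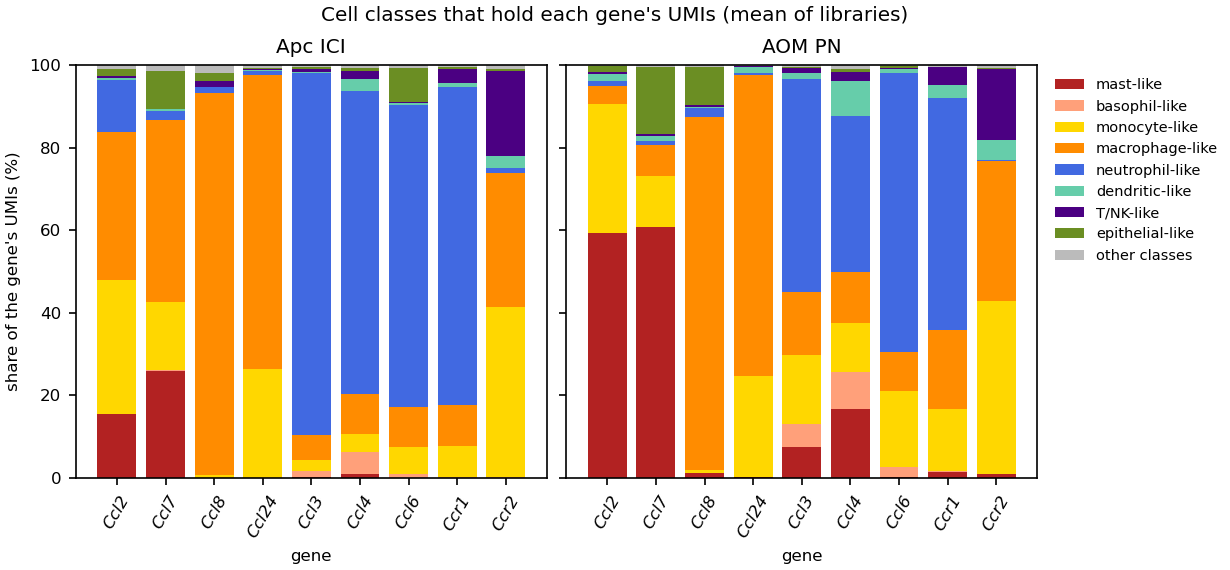
Share of each gene's UMIs held by each cell class, in percent, as the mean of the 3 libraries of a group. Mast-like cells hold 15.5% of Ccl2 UMIs in Apc ICI against 59.3% in AOM PN, macrophage-like cells hold most of Ccl8 and Ccl24, and neutrophil-like cells hold most of Ccl6 and Ccr1 in both groups.

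Among the classes, the mean Ccl2 level was highest in mast-like cells, which store histamine and proteases and respond to IgE. It was 1671, 117 and 4816 against 2005, 849.9 and 1279 CPM there, and the groups overlapped (log2 difference -0.20 ± 0.65, edgeR adjusted p = 0.923). The Apc ICI side rests on 14, 21 and 18 cells. Ccl7 was at 164, 164 and 1976 against 394, 186 and 331, also with overlap (log2 difference -0.94 ± 0.61, edgeR adjusted p = 0.462). Leaving out Apc ICI 3 turned both directions, to 1.39 for Ccl2 and 1.66 for Ccl7, neither called. None of the 7 members tested in mast-like cells was called, where 1.46% of 6585 genes were (1.09% higher and 0.364% lower), and the median difference over all genes there was 0.31. Of the 7, 0 had an unadjusted p under 0.05 and DESeq2 called 0. In AOM PN mast-like cells thinned to 1500 UMIs each, 49.6% ± 8.31 had a Ccl2 UMI and 8.29% ± 0.728 a Ccl7 UMI (n = 3), against 58.1% ± 10.7 and 10.3% ± 1.78 without thinning. The 418 shallower cells were left out. In B-like cells of AOM PN, which should lack both, the shares were 0.773% ± 1.34 and 0.860% ± 0.802. Median depths of the cells left, before thinning and as the median over libraries, were 9183 and 3408.5 UMIs. Erythroid-like cells, the other background class, had higher mean levels in AOM PN than B-like cells. These were 134 against 9.76 CPM for Ccl2 and 17.4 against 2.04 for Ccl7. Of the mast-like clusters in AOM PN, the larger, led by Tpsb2, Mcpt2 and Mcpt1, had Ccl2 at 2126, 926 and 1476 and the smaller, led by Mcpt2, Mcpt1 and Cma1, at 1360.5, 315 and 648, lower in each library.

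Monocyte-like cells came next for Ccl2, at 124, 487 and 266 against 399, 457 and 412 CPM (log2 difference 0.71 ± 0.40, edgeR adjusted p = 0.430). Macrophage-like cells were at 141, 279 and 48.6 against 80.5, 59.5 and 102 (log2 difference -0.86 ± 0.45, edgeR adjusted p = 0.282). Both pairs of groups overlapped. In AOM PN every mast-like level lay above every monocyte-like level, and in Apc ICI those ranges overlapped. The macrophage-like group effect minus the monocyte-like one was -1.63 ± 0.48 for Ccl2 (edgeR adjusted p = 0.191), and none of the 9 genes was called in that comparison, where 0.221% of 10393 genes were (0.173% higher and 0.0481% lower). At an unadjusted p under 0.05, 3 genes passed there, Ccl2, Ccl6 and Ccr2. Ccl7 was at 54.2, 64.7 and 9.08 against 30.5, 23.00 and 32.7 in macrophage-like cells and at 19.2, 54.8 and 23.5 against 20.5, 36.2 and 63.5 in monocyte-like cells, with overlap in both.

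In epithelial-like cells, the target of recombination, Ccl7, Ccl8, Ccl2 and Ccl24 were called higher in AOM PN and Ccl6 lower. These 4 higher and 1 lower of 9 compare with 20.6% and 21.6% of 12390 genes, 42.2% in either direction. The epithelial-like clusters had unequal shares in the groups. That led by Mt3, Mt4 and Ptn held 1168 cells in Apc ICI against 89 in AOM PN. That led by Gm26917, Saa1 and Tcim held 145 against 1473. The part of these shares in the epithelial-like differences was not tested. Ccl7 was at 0.586, 7.04 and 0.296 against 61.4, 105 and 176 CPM, from 131 and 1395 UMIs, with no overlap (log2 difference 5.13 ± 0.73, edgeR adjusted p = 0.000912). Its AOM PN levels exceeded those of erythroid-like cells (32.6, 0 and 19.7) and macrophage-like cells (30.5, 23.00 and 32.7) of the same libraries. The erythroid-like values rest on 22 Ccl7 UMIs. Ccl7 stood at 15.6%, 56.3% and 53.3% of its mast-like level in AOM PN 1 to 3, where the 4 mast cell genes stood at 0.684%, 0.138% and 0.704% of theirs. By cluster in AOM PN, Ccl7 was at 77.1, 144 and 249 in the one led by Gpx2, Wfdc18 and Lgals4 and at 59.1, 73.3 and 138 in the one led by Gm26917, Saa1 and Tcim. A restriction to epithelial-like cells without a UMI of any of 7 mast cell genes was chosen after seeing the data. It kept 85.7%, 67.95% and 73.8% of those cells in Apc ICI 1 to 3 and 6.32%, 38.5% and 1.58% in AOM PN 1 to 3. This left 71, 269 and 9 AOM PN cells, and AOM PN 3 had too few to enter. Over the other 5 libraries the Ccl7 difference was 6.30 ± 0.59 (edgeR adjusted p = 0.000198). The part of this unequal selection of cells in that value was not tested.

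Ccl2 in epithelial-like cells was at 1.06, 5.05 and 1.33 against 45.7, 34.1 and 52.6 CPM, without overlap (log2 difference 4.01 ± 0.46, edgeR adjusted p = 0.000332). Here erythroid-like cells of AOM PN were as high or higher, at 132, 34.7 and 237, the last from 12 UMIs in 75 cells. The 11 mast cell markers were also higher in erythroid-like than in epithelial-like cells of AOM PN. They summed to 10969, 2054 and 20673 against 1137, 267 and 1617 CPM. Whether the erythroid-like level measures free RNA in epithelial-like cells was not tested. The ratio of Ccl7 to Ccl2 UMIs in AOM PN was 1.34, 3.07 and 3.35 in epithelial-like cells, 0.197, 0.219 and 0.259 in mast-like, 0.378, 0.386 and 0.320 in macrophage-like and 0.0513, 0.0791 and 0.154 in monocyte-like cells. The epithelial-like ratios lay above those of the other classes in each AOM PN library. Ccl8 was at 0.469, 0.340 and 0.148 against 5.58, 6.92 and 10.01, from 11 and 94 UMIs (log2 difference 4.50 ± 0.42, edgeR adjusted p = 0.000133). It stood at 14.00%, 24.7% and 19.8% of its macrophage-like level in AOM PN, where C1qa, C1qb and C1qc stood at 0.674%, 0.159% and 0.408% of theirs. Ccl24 was at 1.29, 0.170 and 1.93 against 2.19, 2.01 and 32.02, high in AOM PN 3 and otherwise barely apart (log2 difference 3.66 ± 1.21, edgeR adjusted p = 0.0392). Without that library its difference was 1.19 (edgeR adjusted p = 0.321), and erythroid-like cells of AOM PN were at 26.4, 21.7 and 197. Of the 11 mast cell markers, 10 were tested in epithelial-like cells and 6 called higher, and of the 12 dissociation response genes 7 were called higher; their part in these results was not tested. Ccl3, Ccl4, Ccr1 and Ccr2 were not called in epithelial-like cells, with edgeR adjusted p from 0.0567 for Ccl4 to 0.787 for Ccl3.

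Dendritic-like cells also had more Ccl2 in AOM PN, at 2.41, 4.77 and 1.58 against 23.3, 67.5 and 28.2 CPM from 13 and 605 UMIs, without overlap (log2 difference 3.68 ± 0.56, edgeR adjusted p = 0.0216). It was the 1 member called of 7 tested there, where 1.26% of 8575 genes were called (0.688% higher and 0.571% lower). DESeq2 called 3 members, Ccl2, Ccr1 and Ccr2. The other members tested had edgeR adjusted p from 0.0633 for Ccr2 to 0.825 for Ccl3. Leaving out Apc ICI 1, 2 or 3 took the adjusted p to 0.124, 0.0938 and 0.0660. The erythroid-like level was higher than the dendritic-like one in AOM PN 1 and 3 and lower in AOM PN 2. The 4 mast cell genes summed to 10.2 to 40.6 CPM in dendritic-like cells of Apc ICI and to 117 to 1022 in AOM PN, and their part in the result was not tested. The dendritic-like clusters also had unequal shares in the groups. That led by Cst3, H2-Ab1 and H2-Eb1 held 126 of 301 cells in Apc ICI and 931 of 1301 in AOM PN. The part of these shares in the dendritic-like differences was not tested.

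Ccl8 was mostly a transcript of macrophage-like cells, which held 92.5% ± 5.62 of its UMIs in Apc ICI against 85.5% ± 6.52 in AOM PN (n = 3). Its level in them was 37.6, 48.9 and 144 against 39.9, 28.1 and 50.6 CPM, with overlap (log2 difference -0.75 ± 0.45, edgeR adjusted p = 0.345). It lay in the clusters led by complement C1q genes, which mark resident macrophages. The larger of these had 103, 181 and 366 against 268, 461 and 1364, while the cluster led by Ccl24, Arg1 and Spp1 had 0.400, 0.318 and 1.07 against 1.37, 0 and 2.57. In the C1q-led clusters taken alone, a split chosen after seeing the data, the difference was 1.27 ± 0.52 (edgeR adjusted p = 0.282), the opposite sign to the whole class, and neither value was called. The larger C1q-led cluster held 970 cells in Apc ICI against 823 in AOM PN, and the Arg1-led cluster 421 and 2588.

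Ccl24 led the macrophage-like cluster that also held Arg1 and Spp1, genes of tissue-remodelling macrophages. Macrophage-like cells held 71.4% ± 14.5 of its UMIs in Apc ICI against 72.99% ± 18.2 in AOM PN (n = 3). The level in them was 487, 322 and 1149 against 476, 1653 and 5459.8 CPM, with overlap (log2 difference 2.07 ± 0.75, edgeR adjusted p = 0.136). Without AOM PN 3 the difference was 0.79 (edgeR adjusted p = 0.470). In the Arg1-led cluster Ccl24 was at 700.4, 415 and 1806 against 582, 1716 and 5636, and in the larger C1q-led cluster at 15.5, 42.6 and 174 against 53.9, 700.2 and 1889. Monocyte-like cells had 423, 330.1 and 266 against 262, 253 and 1660.5 (log2 difference 1.25 ± 0.64, edgeR adjusted p = 0.381), and without AOM PN 3 the difference turned to -0.20. AOM PN 3 was the highest of the 6 libraries in each of these.

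Ccl3 (MIP-1α) and Ccl4 (MIP-1β) are made by activated granulocytes, macrophages and lymphocytes. Ccl3 fell in AOM PN neutrophil-like cells, at 2177, 2784 and 2431 against 866, 562 and 653 CPM, without overlap (log2 difference -1.31 ± 0.26, edgeR adjusted p = 0.00677). Of 8 members tested in these cells 1 was called higher and 1 lower, where 32.7% of 9307 genes were (15.3% higher and 17.3% lower). Neutrophil-like cells held 87.8% ± 4.65 of the Ccl3 UMIs in Apc ICI against 51.8% ± 12.7 in AOM PN (n = 3). At 1500 UMIs a cell, 44.9% ± 6.31 of them had a Ccl3 UMI in Apc ICI against 26.2% ± 4.65 in AOM PN, against 50.04% ± 6.96 and 33.6% ± 5.37 without thinning; thinning left out 729 and 533 shallower cells. In B-like cells, which stand here for background, the thinned shares were 3.11% ± 1.64 and 0.904% ± 1.29. Median depths of the cells left were 3170 and 2994 UMIs in neutrophil-like cells and 4712 and 3408.5 in B-like cells. In monocyte/macrophage-like cells Ccl3 was at 272, 404 and 276 against 565, 165 and 152, with overlap (log2 difference 0.10 ± 0.47, edgeR adjusted p = 0.927), of the opposite sign with library totals (-0.11 ± 0.45, edgeR adjusted p = 0.889). The group effect there minus that in neutrophil-like cells was 1.18 ± 0.27 (edgeR adjusted p = 0.0139), in a comparison where 16.2% of 11478 genes were called (10.1% higher and 6.15% lower).

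The 6 neutrophil-like clusters had unequal shares in the groups. The cluster led by Cstb, Hmox1 and Ccl3 held 30.04% to 41.5% of the neutrophil-like cells of the Apc ICI libraries and 0.995% to 1.22% of those of AOM PN. Ccl3 was at 3380.1, 5175 and 4888 against 2870.1, 3316 and 5092 CPM in it. The cluster led by Gm5483, G0s2 and S100a9 held 5.99% to 18.4% against 39.2% to 57.6%, with Ccl3 at 1470.0, 2262 and 3685 against 1524, 677 and 719. The cluster led by Retnlg, S100a9 and S100a8, transcripts of mature neutrophils, held 2.79% to 30.1% against 25.8% to 53.9%, with Ccl3 at 263, 461 and 281 against 375, 160.1 and 224. The groups' Ccl3 levels overlapped within each of the 6 clusters. Some rest on few AOM PN cells: 30, 45 and 32 in the Cstb-led cluster, and 20, 88 and 22 in the Ifit3-led one. The part of the clusters' shares in the lower Ccl3 of the class was not tested. The 15 macrophage markers summed to 985 to 1409.7 CPM in neutrophil-like cells of Apc ICI and to 291 to 391 in AOM PN, and the 12 dissociation response genes to 13900.4 to 18680.2 and 11360.5 to 15488; their part was not tested either.

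**Figure D3:**
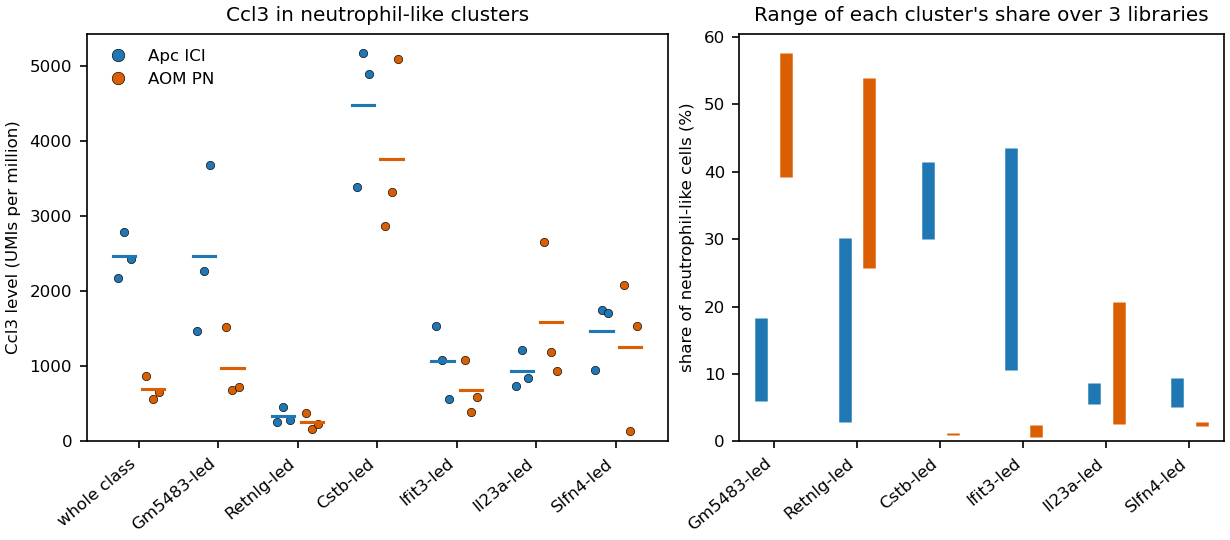
Left, Ccl3 level in CPM in all neutrophil-like cells and in each of the 6 neutrophil-like clusters, with 1 point per library. Right, the range over 3 libraries of each cluster's share of neutrophil-like cells, in percent; the groups are apart in the whole class and overlap in each cluster, and the cluster led by Cstb holds 30.04% to 41.5% in Apc ICI against 0.995% to 1.22% in AOM PN.

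Ccl4 in neutrophil-like cells was at 2182, 2449.9 and 2598 against 1691, 1149.5 and 1101 CPM, apart between the groups but not called (log2 difference -0.36 ± 0.27, edgeR adjusted p = 0.330), and called lower with library totals (-0.88 ± 0.20, edgeR adjusted p = 0.00586). The highest mean levels of Ccl4, Ccl3 and Ccl6 in AOM PN were in basophil-like cells, blood granulocytes that like mast cells bear the IgE receptor. They were tested in no comparison, with 15 cells in Apc ICI against 73 in AOM PN. Ccl4 was at 36706 CPM in the 10 such cells of Apc ICI 3 and at 49692 and 15393 in the 40 and 32 of AOM PN 1 and 2. Ccl3 was at 6719 against 14786 and 3144, and Ccl6 at 4192 against 8993 and 3482. These few cells held 5.37% ± 7.03 of the Ccl4 UMIs of Apc ICI and 9.11% ± 8.44 of those of AOM PN (n = 3). In the dendritic-like cluster led by Ly6d, Siglech and Bst2, Ccl4 was at 2016, 3093 and 4897 in AOM PN, against 573, 644 and 549 in all dendritic-like cells. In mast-like cells Ccl4 was at 301, 46.8 and 5653 against 963, 594 and 489, with Apc ICI 3 far above the other Apc ICI libraries.

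Ccl6, a myeloid chemokine of mice, was mostly held by neutrophil-like cells, at 73.2% ± 5.82 of its UMIs in Apc ICI against 67.5% ± 6.91 in AOM PN (n = 3). Its level in them was 1504, 1406 and 2171 against 2109, 1980.3 and 1575 CPM, with overlap (log2 difference 0.65 ± 0.27, edgeR adjusted p = 0.0864), and with library totals the difference was 0.16 ± 0.21, edgeR adjusted p = 0.561. In the Retnlg-led cluster it was 2511, 3311 and 3158 against 2526, 2822 and 2617. Macrophage-like cells had 498, 490.1 and 311 against 161, 208 and 325, with overlap (log2 difference -0.79 ± 0.25, edgeR adjusted p = 0.0952). In epithelial-like cells Ccl6 fell, at 73.7, 145 and 144 against 20.9, 33.7 and 18.9, without overlap (log2 difference -2.21 ± 0.31, edgeR adjusted p = 0.000817). Of those UMIs, 92.7%, 93.9% and 96.4% in Apc ICI lay in 1 cluster of 41, 60 and 23 cells led by Spink4, Lyz1 and Defa24, genes of goblet and Paneth cells. AOM PN had 4, 4 and 1 cells of that cluster. Outside it, a value computed after seeing the data, Ccl6 was at 5.63, 9.20 and 5.40 in Apc ICI against 16.4, 21.7 and 17.7 in AOM PN, higher in AOM PN and below the erythroid-like 59.9, 143 and 63.5 and 179, 60.8 and 197. With doublets kept, the epithelial-like difference was -1.12 (edgeR adjusted p = 0.0572). In the cells without a mast cell gene UMI, over 5 libraries, it was -0.63 (edgeR adjusted p = 0.403), and the call was lost in both.

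Of the receptors, Ccr1 was highest in neutrophil-like cells, at 816, 865 and 793 against 786, 872 and 587 CPM, with overlap (log2 difference 0.36 ± 0.21, edgeR adjusted p = 0.203). With library totals the sign was the opposite (-0.14 ± 0.19, edgeR adjusted p = 0.564). Among their clusters in Apc ICI it was at 973 to 1271 in those led by Gm5483, Retnlg and Ifit3, and at 540.2, 471 and 410.1 in the Cstb-led cluster, where Ccl3 was highest. In macrophage-like cells Ccr1 was at 240.4, 211 and 224 against 279.8, 303 and 261, without overlap (log2 difference 0.43 ± 0.10, edgeR adjusted p = 0.0420). It was the 1 member of 9 called there, where 6.48% of 9996 genes were (3.31% higher and 3.17% lower), and it was not called with library totals (0.32 ± 0.10, edgeR adjusted p = 0.0955). In the same cells the monocyte markers summed to 1444 to 1795 CPM in Apc ICI against 2474 to 3094 in AOM PN, with 5 of 9 tested called higher. The macrophage markers summed to 23730.1 to 24579 against 12481 to 18387, with 5 of 13 called lower and 1 higher, and 6 of 8 mast cell markers were called higher. Their part in the result was not tested. Leaving out any 1 library took the adjusted p to between 0.0620 and 0.187, with differences from 0.38 to 0.48. The Arg1-led cluster alone gave 0.29 (edgeR adjusted p = 0.312) and the C1q-led clusters alone 0.27 (edgeR adjusted p = 0.645). In T/NK-like cells Ccr1 was at 127, 100 and 137 against 69.1, 66.5 and 98.04, apart but not called (log2 difference -0.49 ± 0.19, edgeR adjusted p = 0.150). None of the 6 members tested in T/NK-like cells was called, where 5.47% of 10332 genes were (2.96% higher and 2.51% lower). Of the 6, 3 (Ccl2, Ccl3 and Ccr1) had an unadjusted p under 0.05 and DESeq2 called 1, Ccl3, which was also called lower with library totals (-1.02 ± 0.21, edgeR adjusted p = 0.0246). Ccl4, Ccl6 and Ccr2 had edgeR adjusted p from 0.650 for Ccl4 to 0.906 for Ccr2.

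Ccr2, the receptor for Ccl2 and Ccl7, was highest in monocyte-like cells, at 729, 377 and 517 against 427, 517 and 636 CPM, with overlap (log2 difference 0.14 ± 0.23, edgeR adjusted p = 0.816). With library totals the sign was the opposite (-0.04 ± 0.24, edgeR adjusted p = 0.946). Macrophage-like cells were at 376, 210.2 and 150.4 against 282, 412 and 567 and T/NK-like cells at 331, 230.2 and 282 against 221, 214 and 369. In Apc ICI the monocyte-like range lay above that of T/NK-like cells, and in AOM PN the monocyte-like and macrophage-like ranges overlapped. The Arg1-led cluster had 503, 279.5 and 244 against 346, 450.0 and 591 and the larger C1q-led cluster 15.5, 42.6 and 4.64 against 13.5, 32.6 and 42.5. Neutrophil-like cells, which held most of the Ccr1, had 2.21 to 5.04. In dendritic-like cells Ccr2 was at 77.6, 38.8 and 45.8 against 93.8, 118 and 133, apart but not called (log2 difference 1.15 ± 0.25, edgeR adjusted p = 0.0633).

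**Figure D4:**
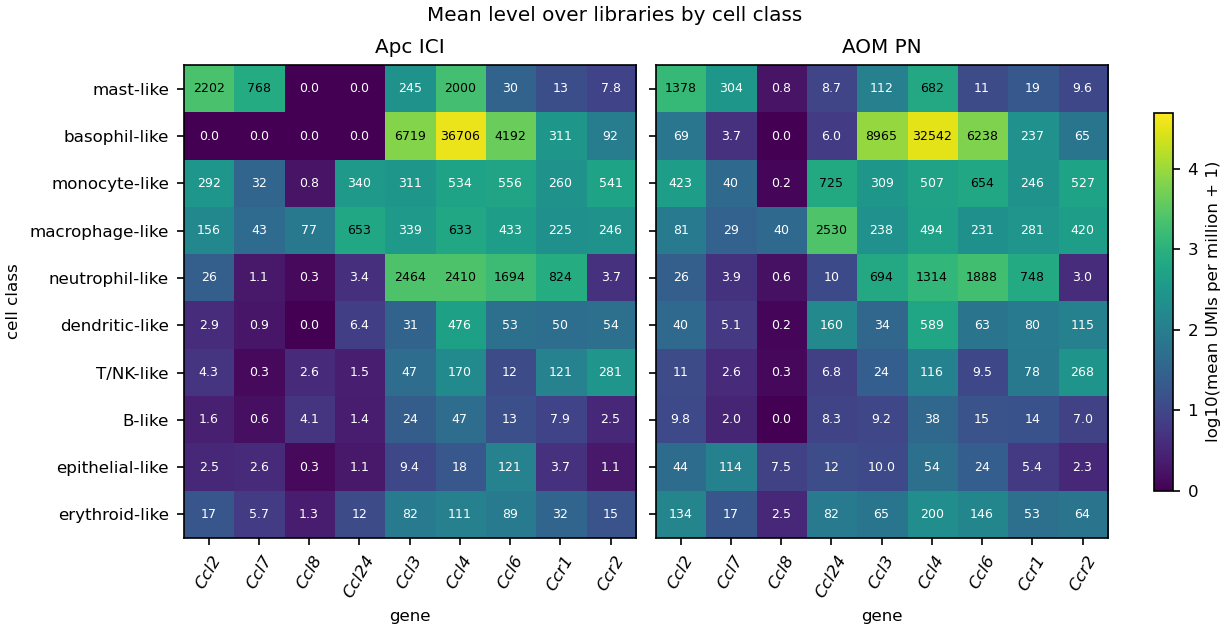
Mean level of each gene over the libraries of a group by cell class, in CPM; colour is log10 of the mean plus 1. Libraries with at least 10 cells of the class enter, which for basophil-like cells is 1 in Apc ICI against 2 in AOM PN; Ccr2 is highest in monocyte-like cells in both groups and Ccr1 in neutrophil-like cells.

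In monocyte/macrophage-like cells taken as 1 class, 0 of the 9 members were called by edgeR, where 3.37% of 10993 genes were (1.41% higher and 1.96% lower). At an unadjusted p under 0.05, 2 members passed, Ccl24 and Ccr1, and DESeq2 called 0. The median difference was 0.14 over the members and -0.02 over all genes. The members ran from -0.92 ± 0.55 for Ccl8 (edgeR adjusted p = 0.366) to 2.01 ± 0.79 for Ccl24 (edgeR adjusted p = 0.180). In monocyte-like cells 0 of 8 tested were called, where 0.663% of 9205 genes were (0.239% higher and 0.424% lower); 0 had an unadjusted p under 0.05 and DESeq2 called 0. At 1500 UMIs a cell, 25.00% ± 1.52 of Apc ICI and 29.6% ± 1.41 of AOM PN monocyte/macrophage-like cells had a Ccr1 UMI (n = 3). A Ccr2 UMI was in 28.7% ± 9.73 and 41.3% ± 8.12 (n = 3). The cut left out 679 of 2078 and 582 of 6652 cells, with median depths of 9371.5 and 8727 UMIs in the cells left. The larger C1q-led cluster, 970 cells in Apc ICI against 823 in AOM PN, had a median of 1419 UMIs, below the cut. Monocyte-like cells were 623 of the class in Apc ICI and 3167 in AOM PN. The part of this mix in the shares was not tested. In B-like cells the Ccr1 shares were 0.826% ± 1.43 and 1.32% ± 1.21 and the Ccr2 shares 0.168% ± 0.290 and 0.442% ± 0.765. The two-sided exact permutation test over libraries gave p = 0.1 for Ccr1, the smallest that 3 against 3 allows, and p = 0.2 for Ccr2 (both 0.45 when adjusted over the 9 shares tested). Without thinning the Ccr1 shares were 43.1% ± 9.13 and 67.5% ± 7.47 and the Ccr2 shares 35.8% ± 10.8 and 69.1% ± 13.9, at median depths of 2734 and 8473 UMIs. Of the thinned cells, 29.8% to 43.8% per library held no UMI of the 7 ligands and 6.25% to 9.23% held at least 3 of them.

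**Figure D5:**
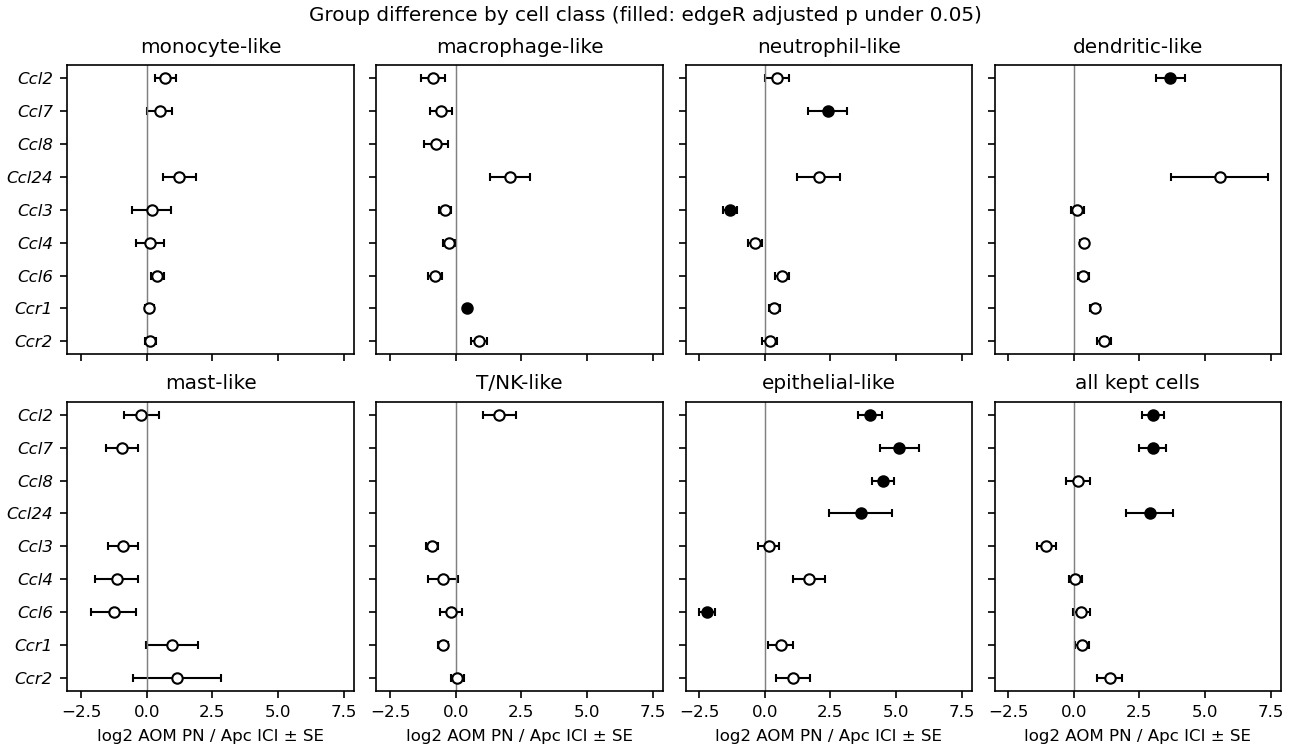
Log2 difference of each gene between AOM PN and Apc ICI with its standard error, by cell class; filled points have an edgeR adjusted p under 0.05, and genes that did not pass the filter on low counts have no point. Filled points in myeloid classes include Ccl3 in neutrophil-like cells and Ccr1 in macrophage-like cells.

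The call of Ccl7 in neutrophil-like cells rested on 20 UMIs in Apc ICI against 110 in AOM PN. The level was 2.43, 0.439 and 0.473 against 4.18, 1.13 and 6.39 CPM, with overlap (log2 difference 2.40 ± 0.76, edgeR adjusted p = 0.0376). With library totals the call was lost (1.88 ± 0.72, edgeR adjusted p = 0.0554). The adjusted p was 0.149 without Apc ICI 2, 0.0852 without Apc ICI 3, 0.0772 without AOM PN 1 and 0.118 without AOM PN 3. All 11 mast cell markers were called higher in the same cells, and in AOM PN Ccl7 stood at 1.06%, 0.607% and 1.93% of its mast-like level, where the 4 mast cell genes stood at 0.892%, 0.195% and 1.32% of theirs.

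Other genes of the pathway were read in monocyte/macrophage-like cells from lists given with the design. Of 13 other CC chemokines, 7 were tested and 2 fell, both ligands of Ccr4. Ccl17 was at 65.6, 235 and 199.7 against 9.20, 30.9 and 13.8 CPM (log2 difference -3.02 ± 0.53, edgeR adjusted p = 0.0232). Ccl22 was at 16.7, 24.9 and 46.5 against 1.36, 2.76 and 1.86 (log2 difference -3.62 ± 0.41, edgeR adjusted p = 0.00564). Neither overlapped between groups. The dendritic markers in these cells summed to 230.4, 226 and 225 against 128, 204 and 196 CPM, also apart, and their part in the result was not tested. Of 12 other receptors, 4 were tested and 1 rose, the chemerin-binding Ccrl2, at 503, 437 and 367 against 793, 978 and 607 (log2 difference 1.06 ± 0.19, edgeR adjusted p = 0.0244). None of the 6 tested of 10 genes for monocyte supply and macrophage survival was called, and none of 12 dissociation response genes. In epithelial-like cells 6 other CC chemokines were tested, of which 4 rose and 1 fell, where 20.6% of all genes were called higher and 21.6% lower. Ccl20, the Ccr6 ligand, was at 5.86, 9.42 and 7.11 against 59.01, 49.3 and 91.2 (log2 difference 3.20 ± 0.27, edgeR adjusted p = 8.24e-05). Ccl27a was at 18.99, 13.8 and 16.01 against 7.77, 7.36 and 9.43 (log2 difference -0.90 ± 0.19, edgeR adjusted p = 0.00601).

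Likeness was read as the Pearson correlation of log2 levels over 60 sums of 11 classes, which share libraries, among 11145 genes, as a description. Ccl2 and Ccl7 were each the most alike gene of the other (0.84). The mast cell transcription factor Mitf (0.76) was also among the nearest to Ccl2, and Tiam2 (0.73) and Ahnak2 (0.69) among those to Ccl7. Ccl8 was nearest to Col14a1 (0.82), Pf4 (0.82) and Igf1 (0.81), and Ccl24 to Chil3, Adgre4 and Ms4a4a (each 0.85). Ccl3 was nearest to Osm (0.87), Ccl6 (0.85) and Ccl4 (0.84). Ccl4 was nearest to Lilr4b (0.84) and Ccl6 to Igsf6 (0.89). Ccr1 was nearest to Ptgs2 (0.93) and Ccr2 to Ms4a6b (0.88).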

How the data were processed

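The authors deposited, for each of 6 libraries, a matrix of raw UMI counts per gene and cell barcode, made with Cell Ranger 6.1.2 on mm10 per the submitters' processing notes. The gene annotation and the rule for calling cells are not given in the sources used here. Here cells were kept with at least 200 genes, at least 500 UMIs and at most 20% mitochondrial counts. Simulated doublets were scored and 0.8% per 1000 deposited barcodes removed, 5.50 to 12.9% of the cells of a library. Barcodes shared between libraries were 0.0800% to 0.383% of the smaller library. Cells were clustered without the 9 genes (2000 variable genes, 30 components, 20 neighbours, Leiden resolution 1; scikit-learn 1.9.0, leidenalg 0.10.2) and named from marker lists. Haemoglobin took 1.87 to 61.4% of UMIs and was left out of totals.

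Counts were summed per library and class (at least 10 cells) and tested with edgeR 4.0.16 in R 4.3.3 (quasi-likelihood, TMM, its filter on low counts, Benjamini-Hochberg over all genes tested, threshold 0.05), fitted on the 6 libraries, or on 5 where a restriction left a library under 10 cells. DESeq2 1.42.0, no filter, the replicate block, thinning to 1500 UMIs, doublets kept, library totals and leaving out each library were alternatives. The code was tested on simulated counts. Shares of cells were compared by the exact permutation test, whose smallest p is 0.1. Errors given for levels and shares are the spread over the 3 libraries of a group. RefSeq promoters were used for 5 members and the other 4 are named only. The rule names all 9 members in each comparison; those with no value of their own were not called or not tested; list genes are named by largest change among those called with at least 10 UMIs per 1000000; likeness names some of the 3 nearest genes, 1 of which is not reported here. The members and lists were chosen with earlier results of these data known.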

Additional observations from a re-analysis of the deposited data

Results flagged for a closer look

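The group effect of Ccl7 in monocyte/macrophage-like cells minus that in neutrophil-like cells was -2.53 ± 0.75 on the log2 scale (edgeR adjusted p = 0.0380), a difference between cell classes under the same contrast. It rests on 20 and 110 neutrophil-like UMIs and was -1.33 without Apc ICI 2 (adjusted p = 0.266), with the call also lost without AOM PN 1 or AOM PN 3 (adjusted p = 0.0808 and 0.0912). The same difference for Ccl3 was 1.18 ± 0.27 (edgeR adjusted p = 0.0139), with Ccl3 lower in AOM PN in neutrophil-like cells and not called in monocyte/macrophage-like cells.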

How the results depend on the processing

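Of the members' values under all alternatives, 1035 kept their side of the threshold, 77 of these with the opposite sign and not called under either setting, 64 newly passed it, 35 lost it and 1 changed sign with a call. Counts of genes called varied with the setting. Against 370 calls in monocyte/macrophage-like cells, DESeq2 gave 793, no filter on low counts 1204, the replicate block 82, thinned cells 175, library totals 739, and leaving out 1 library 28 to 600. Monocyte-like cells gave 61 against 296 (DESeq2), 611 (no filter), 103 (block), 139 (totals) and 6 to 175 (1 library left out). Macrophage-like cells gave 648 against 1513 (no filter), 298 (block), 198 and 65 (Arg1-led or C1q-led alone, fewer cells) and 77 to 778 (1 left out). Neutrophil-like cells gave 3039 against 1908 (thinned), 1549 (no mast marker UMI) and 1508 to 2875 (1 left out). Dendritic-like cells gave 108 against 204 (DESeq2), 656 (no filter), 9 (block) and 9 to 82 (1 left out). Mast-like cells gave 96 against 438 (DESeq2), 523 (no filter), 233 (block) and 3 to 86 (1 left out). T/NK-like cells gave 565 against 1287 (no filter), 322 (block), 205 (no mast marker UMI, 5 libraries) and 63 to 601 (1 left out). Epithelial-like cells gave 5229 against 2023 (thinned) and 2526 (no mast marker UMI, 5 libraries). All kept cells gave 5082 against 2692 to 4592 (1 left out). The comparison of monocyte/macrophage-like with neutrophil-like effects gave 1865 against 845 to 1554 (1 left out), and that of macrophage-like with monocyte-like effects 23 against 395 (no filter), 56 (totals) and 1 to 181 (1 left out). The causes were not tested. Of the calls, the share that was higher in AOM PN fell with library totals from 41.9% to 11.5% in monocyte/macrophage-like, 36.1% to 12.9% in monocyte-like, 51.1% to 28.4% in macrophage-like, 46.9% to 9.32% in neutrophil-like, 54.6% to 40.5% in dendritic-like, 75% to 17.7% in mast-like, 54.2% to 23.4% in T/NK-like and 42.4% to 13.8% in all kept cells; in mast-like cells RLE factors gave 58%. For the differences between classes it rose from 62.1% to 88.4% and from 78.3% to 92.9%. Ccl4 in mast-like cells reversed, from -1.14 to 2.77 (edgeR adjusted p = 0.0231) without Apc ICI 3, with values from -1.71 to 2.77 on leaving out 1 library. Under the replicate block, Ccr1 in macrophage-like cells had an adjusted p of 0.132 and Ccl24 over all kept cells of 0.0754. Same-numbered samples correlated at -0.14, 0.08 and -0.13 over all kept cells. With 3 libraries a group, these values cannot decide whether the numbers pair the samples. Sums of at least 20 cells gave no mast-like value, and basophil-like cells were not tested. Mast-like values of Apc ICI are limited by 53 cells.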
